A study of Mus musculus with 6 samples.

Results

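Transcripts of the mitochondrial calcium uniporter, its regulators, the mitochondrial sodium-calcium exchanger and the voltage-dependent anion channels (VDACs) were followed in 6 bulk RNA-seq libraries. The set comprised 9 genes taken by name from the deposited count table (Mcu, Micu2, Micu3, Smdt1, Mcur1, Slc8b1, Vdac1, Vdac2 and Vdac3), 9 of 54532 rows in all, and all 9 passed the filter on low counts that left 16844 genes for testing. The cell line on the labels is NIT-1, derived from a mouse insulinoma and kept as a model of the beta cell. In 3 of them (EV_Tm) cells had been given hucMSC-EVs, that is extracellular vesicles from mesenchymal stem cells of human umbilical cord, for 16 h, and in the other 3 (PBS_Tm, titled ERS) they had been given PBS. Both groups were then exposed to Tm for 8 h, read here as tunicamycin, which blocks N-linked glycosylation and stresses the endoplasmic reticulum (ER). A treatment label of the PBS_Tm samples reads as untreated, but the series' design text gives them Tm. None of the 6 libraries was without Tm, and a difference below therefore compares vesicles with PBS on a shared Tm background.

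Calcium released from the ER crosses the outer mitochondrial membrane mainly through VDACs and enters the matrix through the uniporter, driven by the membrane potential. MCU forms the pore, EMRE (encoded by Smdt1) couples the pore to its gatekeepers, and the MICU proteins sense calcium on the outer side. Some of the MICU proteins keep the pore shut while cytosolic calcium is low. NCLX (encoded by Slc8b1) carries calcium back out in exchange for sodium. In beta cells matrix calcium activates dehydrogenases and links glucose metabolism to insulin secretion, while overload of the matrix can open the permeability transition pore.

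The libraries held 28654248 to 32550268 counts. Of 9 beta-cell markers checked, 7 had no more than 3 counts in any library, Ins1, Ins2, Iapp and Pdx1 among them, and the summed level of the 9 was 0.0977 to 0.248 CPM (counts scaled to library size) in PBS_Tm and 0.195 to 0.558 in EV_Tm. The label of a beta cell was thus not borne out by its defining transcripts. The name of the line rests on the labels alone, and the identity of the line was not tested. Summed markers of other cell types lay at 0.154 to 0.749 and 0.325 to 0.803 CPM for other endocrine cells (Sst, Ppy and Pyy at or under 3 counts throughout), 84.6 to 92.6 and 113 to 116 for acinar and duct cells, 15.2 to 16.5 and 14.9 to 18.5 for fibroblasts, 31.2 to 33 and 29.4 to 31.0 for endothelium and 2.67 to 4.40 and 4.55 to 6.49 for immune cells, in PBS_Tm and EV_Tm respectively. The acinar and duct sum came from Sox9 and Cela1, with Cpa1, Prss2 and Krt19 at or under 3 counts in every library, while among the fibroblast markers Col3a1 went from 101 to 119 counts to 173 to 223 and Col1a1 from 95 to 117 counts to 44 to 76. The endothelial sum came from Pecam1 (872 to 929 counts in PBS_Tm, 693 to 801 in EV_Tm) and Cdh5 (86 to 143 and 152 to 162), with Kdr at 0 in every library. The immune sum came almost wholly from Cd68 (82 to 142 counts in PBS_Tm, 130 to 186 in EV_Tm), whose ranges overlapped. Ptprc and Lyz2 had 0 counts except in EV_Tm replicate 1, with 4 and 6. The part of these transcripts in the results was not tested. Whether the 3 samples of a group were separate cultures is not stated, and p-values here thus reflect the spread between these libraries alone, which may be technical. Below, means are given ± SD (n = 3 in each group) and log2 fold changes, always EV_Tm minus PBS_Tm, ± SE.

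The pore gene Mcu and the regulator gene Mcur1 were lower in EV_Tm, the gatekeeper genes Micu2 and Micu3 and the channel gene Vdac3 were lower by less, and Vdac1 and, by a small step, Vdac2 were higher. Smdt1 and Slc8b1 did not pass the test. As these are bulk libraries, fewer cells with a transcript and less of it per cell cannot be told apart. In all, 2 of the 9 genes rose and 5 fell at an adjusted p under 0.05 (edgeR quasi-likelihood test, Benjamini-Hochberg adjustment over all genes tested), while among all genes tested 47.4% passed, 22.6% upwards and 24.7% downwards. The CPM values of the groups lay apart in 7 of the 9 genes, against 54.5% of all genes. The median log2 fold change of the 9 was -0.14, beside 0.01 for all genes, and the median absolute change of all genes was 0.28. Only Mcu, Mcur1 and Vdac1 of the 9 exceeded that size. Without EV_Tm replicate 2 the number of genes passing was 4, since Micu2, Micu3 and Vdac2 were no longer called.

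**Figure D1:**
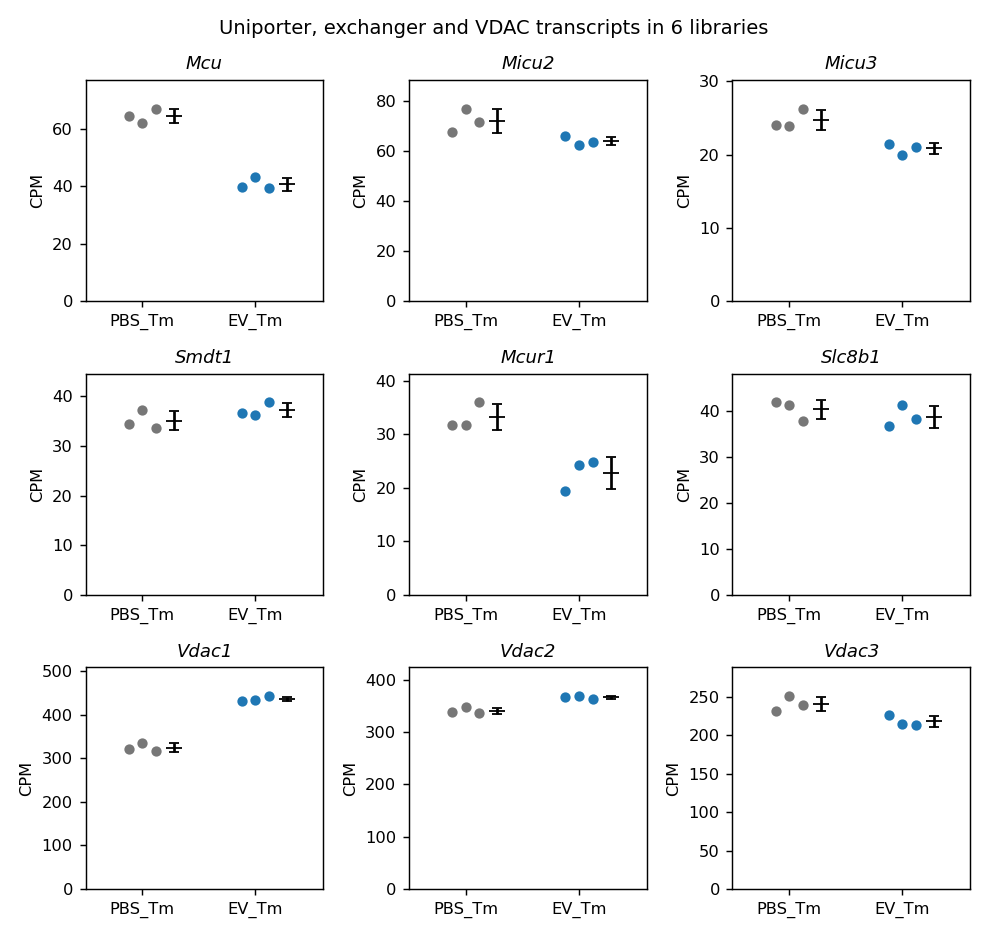
Level of each of the 9 genes in CPM (y axis, from 0) in the PBS_Tm and EV_Tm libraries (x axis), with a point for each library and the mean ± SD of 3 beside them. The groups lie apart for every gene shown except Smdt1 and Slc8b1, with the widest relative gap downwards for Mcu (64.6 to 40.7 CPM) and upwards for Vdac1 (324 to 436 CPM).

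Levels can be set side by side between genes only per length, and were expressed for this as TPM, a length-scaled share of the library, from counts and the gene length in the deposited table. In PBS_Tm the order ran from Vdac1 (438 ± 8 TPM) through Vdac2 (253 ± 2) and Vdac3 (157 ± 5) to Smdt1 (83.8 ± 3.5), Micu2 (82.5 ± 4.8), Slc8b1 (41.3 ± 1.7), Mcu (32.9 ± 1.7), Mcur1 (16.6 ± 1.4) and Micu3 (14.2 ± 1.0). Among the 9 genes, transcripts of the outer membrane channels were thus more abundant than those of any inner membrane gene. Within PBS_Tm the libraries of Smdt1 (81.5 to 87.9 TPM) and Micu2 (77.3 to 86.8) overlapped, and all other neighbours in the order were apart. In EV_Tm the order was the same down to Mcu, with Vdac1 at 576 ± 7 TPM, Smdt1 at 87.0 ± 3.2, Micu2 at 71.7 ± 1.9 and Mcu at 20.3 ± 1.1. There the ranges of Smdt1 and Micu2 no longer overlapped, while Mcur1 (9.48 to 12.1 TPM) and Micu3 (11.2 to 12.1 TPM) did.

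Mcu (ENSMUSG00000009647, chromosome 10, 59446984 to 59616692, all coordinates being on GRCm38) encodes the pore-forming subunit. Its level was 64.5, 62.1 and 67.0 CPM in PBS_Tm replicates 1 to 3 and 39.6, 43.2 and 39.3 CPM in EV_Tm. Every EV_Tm library lay below every PBS_Tm library, and the gap between the groups was several times the spread within them. The log2 fold change was -0.67 ± 0.06 (edgeR adjusted p = 1.37e-09), that is 1.59-fold lower, and 16.9% of all genes tested had a larger absolute change. Mcub, which encodes a paralog that joins the pore and lowers its conductance, is not among the 9 genes but on a list of other matrix calcium transport genes. It fell to a like extent, from 22.1 ± 0.3 to 14.7 ± 0.3 CPM (1.501-fold lower). Mcub was singled out after its values had been seen.

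Mcur1 (ENSMUSG00000021371, chromosome 13, 43538393 to 43560191) encodes an inner membrane protein described as a scaffold for uniporter assembly. It stood at 31.8, 31.7 and 35.9 CPM in PBS_Tm and at 19.4, 24.3 and 24.7 CPM in EV_Tm. The groups did not overlap, although EV_Tm replicate 1 lay well under the other two. Mcur1 was 1.45-fold lower (log2 fold change -0.54 ± 0.09, edgeR adjusted p = 1.64e-05).

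The genes Micu2 and Micu3, grouped here as gatekeepers, changed less. Micu2 (ENSMUSG00000021973, chromosome 14, 57916261 to 57999262), whose EF-hand protein senses calcium at the pore, had 67.5, 76.8 and 71.6 CPM in PBS_Tm and 65.8, 62.3 and 63.6 CPM in EV_Tm. The groups were apart by a narrow margin, PBS_Tm replicate 1 against EV_Tm replicate 1, for a log2 fold change of -0.17 ± 0.06 (edgeR adjusted p = 0.0139). The call was lost without PBS_Tm replicate 2 (edgeR adjusted p = 0.0848) and without EV_Tm replicate 2 (0.0594), and with scaling to library size alone (0.056). Micu3 (ENSMUSG00000039478, chromosome 8, 40307458 to 40386308), a paralog best known from neurons that enhances uptake, had 24.02, 23.9 and 26.3 CPM in PBS_Tm and 21.5, 19.97 and 21.0 CPM in EV_Tm. All 3 EV_Tm values were the lower ones, and the log2 fold change was -0.25 ± 0.08 (edgeR adjusted p = 0.0129), a call lost without PBS_Tm replicate 3 (0.0591) or EV_Tm replicate 2 (0.0559).

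Because the pore gene fell more than these 2 genes, their ratio to it was higher in EV_Tm. The ratio of Micu2 to Mcu, both as counts per kilobase, was 2.35, 2.78 and 2.40 in PBS_Tm and 3.73, 3.24 and 3.64 in EV_Tm. The ratio of Micu3 to Mcu was 0.419, 0.433 and 0.442 in PBS_Tm and 0.610, 0.520 and 0.604 in EV_Tm. For Micu2 and Micu3 together it went from 2.94 ± 0.24 to 4.12 ± 0.31, a 1.40-fold higher ratio, with a difference of 0.48 on the log2 scale. In each of these ratios every EV_Tm library lay above every PBS_Tm library, but an exact two-sided permutation test of 3 libraries against 3 cannot go below p = 0.1, the value it gave for each (0.111 after adjustment over the 10 ratios and shares compared). With Mcub added to the pore the difference was 0.43. The ratio of Micu2 to Micu3 overlapped between the groups (5.44 to 6.41 against 6.03 to 6.23), as did that of Mcub to Mcu (1.73 to 1.90 against 1.79 to 2.01). These are ratios of transcripts and give no stoichiometry of the proteins. Since Micu3 is described as enhancing uptake, the summed ratio is no measure of how tightly the pore is kept shut.

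Smdt1 (ENSMUSG00000022452, chromosome 15, 82338959 to 82349091), the gene of the coupling subunit EMRE, had 34.4, 37.3 and 33.6 CPM in PBS_Tm and 36.6, 36.2 and 38.7 CPM in EV_Tm. The groups overlapped, and the log2 fold change of 0.08 had a 95% interval of -0.06 to 0.225 (edgeR adjusted p = 0.327). Slc8b1 (ENSMUSG00000032754, chromosome 5, 120511168 to 120534024), the exchanger gene, had 42.0, 41.3 and 38.0 CPM in PBS_Tm and 36.7, 41.3 and 38.4 CPM in EV_Tm. Here too the groups overlapped (log2 fold change -0.06, 95% interval -0.20 to 0.08, edgeR adjusted p = 0.506). Both intervals lie above that of Mcu, which ran from -0.79 to -0.54. The ratio of Smdt1 to Mcu was accordingly 2.35 to 2.81 in PBS_Tm and 3.92 to 4.62 in EV_Tm, and that of Slc8b1 to Mcu 1.14 to 1.33 and 1.86 to 1.96 (exact permutation p = 0.1 each). The ratio of Mcur1 to Mcu overlapped, at 0.482 to 0.526 in PBS_Tm and 0.480 to 0.618 in EV_Tm (exact permutation p = 0.4).

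**Figure D2:**
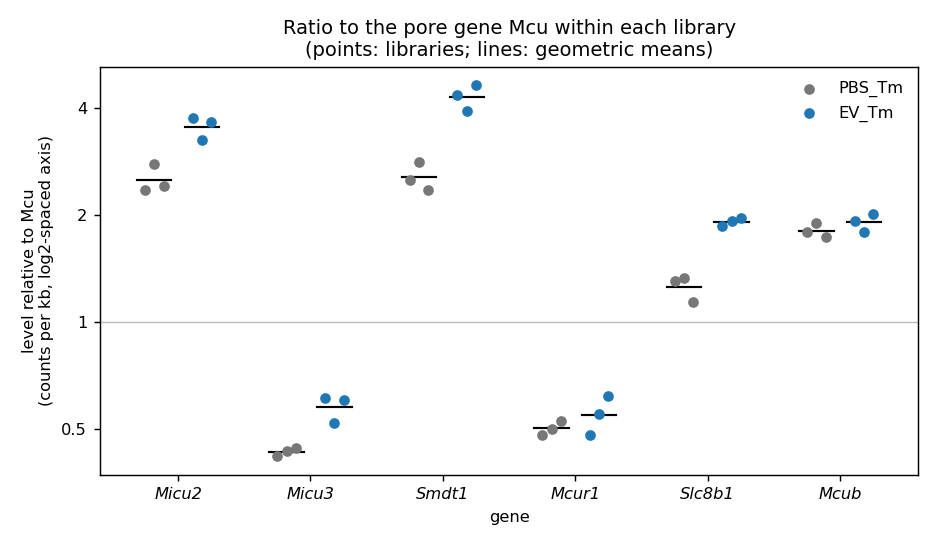
Level of 6 genes relative to Mcu (counts per kilobase over those of Mcu, y axis spaced on a log2 scale) in each library, with PBS_Tm in grey, EV_Tm in blue and geometric means as lines. The groups lie apart for Micu2, Micu3, Smdt1 and Slc8b1, all higher in EV_Tm, and overlap for Mcur1 and Mcub.

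The outer membrane channels went different ways. Vdac1 (ENSMUSG00000020402, chromosome 11, 52360860 to 52389397), the isoform linked to ER calcium release through the chaperone Hspa9, had 321, 336 and 316 CPM in PBS_Tm and 432, 435 and 442 CPM in EV_Tm. All EV_Tm libraries lay well above those of PBS_Tm, and the gene was 1.35-fold higher (log2 fold change 0.43 ± 0.04, edgeR adjusted p = 1.05e-09). Vdac2 (ENSMUSG00000021771, chromosome 14, 21825238 to 21845879), whose protein also binds the cell death factor BAK, had 338, 348 and 337 CPM in PBS_Tm and 367, 369 and 364 CPM in EV_Tm. The groups were apart but close, and Vdac2 rose 1.08-fold (edgeR adjusted p = 0.0216), a call lost on leaving out EV_Tm replicate 1 (0.0807), 2 (0.105) or 3 (0.0540), with the replicate number as a block (0.0674) or on fitting without the filter on low counts (0.0707). Vdac3 (ENSMUSG00000008892, chromosome 8, 22577075 to 22593813), an isoform noted for its redox-sensitive cysteines, had 232, 251 and 239 CPM in PBS_Tm and 227, 215 and 214 CPM in EV_Tm. It fell without overlap of the groups (log2 fold change -0.14 ± 0.04, edgeR adjusted p = 0.00807), and the call was lost without EV_Tm replicate 3 (0.0532) and with scaling to library size alone (0.0518).

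The paralogs thus took different shares of VDAC transcripts in the groups. Of their summed counts per kilobase, Vdac1 made up 51.9%, 51.8% and 51.3% in PBS_Tm and 58.1%, 58.6% and 59.3% in EV_Tm. The share of Vdac2 went from 29.8% ± 0.3 to 27.1% ± 0.3, so that it was lower although the gene's own level was slightly higher. The share of Vdac3 went from 18.5% ± 0.4 to 14.2% ± 0.5. Each of the 3 shares lay apart between the groups (exact permutation p = 0.1, the smallest possible). Summed over the 3 paralogs, VDAC transcripts stood at 25.8 ± 1.6 times Mcu in PBS_Tm and 48.4 ± 2.7 times in EV_Tm. This ratio of transcripts, which is not one of channels, was 1.88-fold higher in EV_Tm. Its difference on the log2 scale was 0.91, and 0.84 without division by length. Reads may be split between Vdac3 and its pseudogene Vdac3-ps1 (chromosome 13, 18030741 to 18031593), whose counts came to 13.6% to 15.0% of those of Vdac3. The pseudogene went from 34.2 ± 0.6 to 30.6 ± 1.0 CPM (edgeR adjusted p = 0.0581), and with its counts added the share of Vdac3 differed by -4.74 percentage points (EV_Tm minus PBS_Tm), beside -4.33 without. Exons of Vdac2 share 25 of 4769 bases with Comtd1 on the other strand, and those of Smdt1 share 245 of 1479 with Pheta2 on the same strand, which had 0 to 18 counts a library. Exons of Micu3 share 202 of 6153 bases with Fgf20 and 55 with Mir7666, both on the other strand and with 0 counts in every library. How reads in the shared bases were assigned was not tested.

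**Figure D3:**
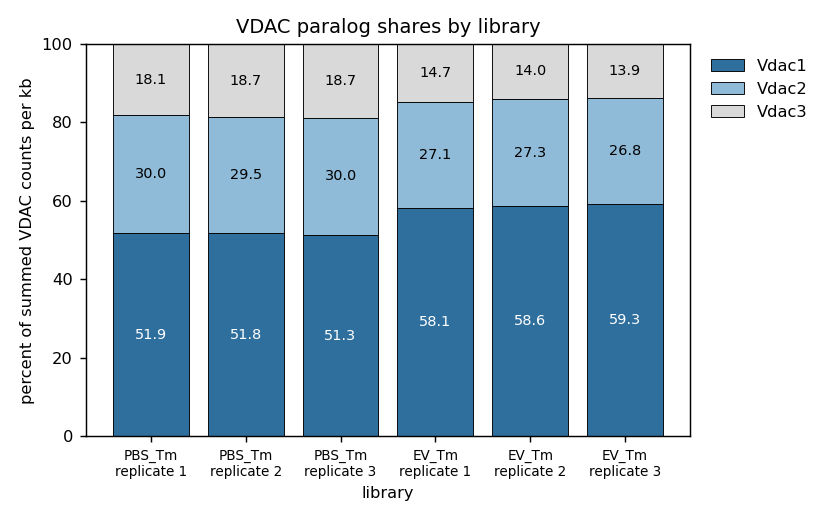
Share of Vdac1, Vdac2 and Vdac3 in their summed counts per kilobase (y axis, percent) in each of the 6 libraries (x axis). Vdac1 takes 51.3% to 51.9% in PBS_Tm and 58.1% to 59.3% in EV_Tm, with lower shares of Vdac2 and Vdac3.

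The promoters of the genes with the widest changes, Mcu and Mcur1 downwards and Vdac1 upwards, are shown because the series title names XBP1, a factor of the ER stress response that binds elements that hold CCACG or ACGTG. The sequences are from RefSeq (GRCm38.p6), 250 bases up to the start site, 5′ to 3′ on the gene's strand. Mcu lies at chr10:59616693-59616942 (minus strand), Mcur1 at chr13:43560192-43560441 (minus strand) and Vdac1 at chr11:52360601-52360850 (plus strand). Capitals mark CCAAT and CCACG, the outer parts of the ER stress element, on either strand (ATTGG and CGTGG when read from the other strand).
Mcu: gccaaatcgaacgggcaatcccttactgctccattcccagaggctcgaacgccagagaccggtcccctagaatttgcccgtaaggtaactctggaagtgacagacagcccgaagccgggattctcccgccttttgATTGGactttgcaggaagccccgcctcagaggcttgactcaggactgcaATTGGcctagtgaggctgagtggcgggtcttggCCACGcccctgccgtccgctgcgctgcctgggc
Mcur1: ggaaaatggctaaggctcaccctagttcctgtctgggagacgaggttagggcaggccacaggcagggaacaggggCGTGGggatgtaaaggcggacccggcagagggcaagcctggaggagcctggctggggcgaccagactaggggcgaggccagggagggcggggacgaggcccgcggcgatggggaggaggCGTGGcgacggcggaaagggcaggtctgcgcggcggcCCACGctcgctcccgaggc
Vdac1: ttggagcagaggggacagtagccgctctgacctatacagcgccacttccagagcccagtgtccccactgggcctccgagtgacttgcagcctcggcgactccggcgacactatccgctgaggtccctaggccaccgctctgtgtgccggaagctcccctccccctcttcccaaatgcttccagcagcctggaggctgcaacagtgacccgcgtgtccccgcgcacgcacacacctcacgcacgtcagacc

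In these windows Mcu held 2 CCAAT boxes, both on the opposite strand, and 1 CCACG, Mcur1 held 3 CCACG and Vdac1 held neither. ACGTG by itself was not marked, and its share over all promoters was not counted. As can be read from the sequences, the Vdac1 window shown holds its reverse complement, CACGT, close to the start site. The Mcu and Mcur1 windows hold neither form. Without a background share these letters cannot be set against other promoters, and a link to XBP1 was not tested. A further Vdac1 start site in the table, inside the gene, had 2 CCACG in its 250 bases, and Micu2 (log2 fold change -0.17) held 1 CCACG. Of the 6 start sites of the 9 genes that the table holds, 4 had CCACG and 1 had CCAAT. Over all 32851 promoters of the table, 33.8% held CCAAT and 28.3% CCACG in the same 250 bases. The 6 windows were richer in G and C (60.4% to 70.8%, with 14 to 23 CpG) than the median promoter (52.4%, with 6 CpG). The part of base composition in these shares was not tested. Whole elements were searched on both strands in 300 bases, from 250 before to 50 after the start site, for the 5 of 9 genes that matched the table (Mcu, Mcur1, Micu2, Smdt1 and Vdac1, with 6 start sites). The ER stress element (CCAAT, any 9 bases, CCACG) occurred in none of them and in 0.119% of all promoters, and its variant (ATTGG, any 1 base, CCACG) in none and in 0.0365%. TGACGTGG occurred in none and in 0.676% of all promoters, the shorter CCACGT, whose reverse complement lies within TGACGTGG, in none and in 8.31%, and TGATG, any 1 base, AA, a part of the ATF4 element, in none and in 3.97%. A window without these letters says nothing about binding of a factor elsewhere. The search for the parts of the element was added after the whole element had been found in none.

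Around the 9 genes, other parts of mitochondrial calcium handling moved in both directions. A list of 14 other genes tied to matrix calcium transport also held carriers of other solutes and protease subunits. Of these 14 genes 5 rose, 7 fell and 2 did not pass, beside 22.6% of all genes tested that rose and 24.7% that fell. Their median log2 fold change was -0.19, beside 0.01 for all genes. Slc25a24, a calcium-regulated carrier of ATP-Mg and phosphate, was 1.61-fold lower (edgeR adjusted p = 1.35e-11), Letm1, an inner membrane protein of cation exchange, 1.37-fold lower, and Ghitm, an inner membrane protein that interacts with LETM1, fell from 988 ± 15 to 785 ± 6 CPM. Slc25a23, a relative of Slc25a24 that has been tied to uniporter activity, was 1.31-fold higher, Ppif, the cyclophilin that promotes the permeability transition, 1.30-fold higher and Slc25a13, the calcium-activated aspartate-glutamate carrier citrin, 1.197-fold higher. Its paralog Slc25a12, the aspartate-glutamate carrier aralar, went the other way (log2 fold change -0.20, edgeR adjusted p = 0.00439). Leaving out EV_Tm replicate 1 ended that call (0.0503). Tmem65, an inner membrane protein tied to sodium-dependent calcium release, fell (log2 fold change -0.37), as did Letm2, a relative of Letm1 (-0.24, edgeR adjusted p = 0.0185), whose call was lost without PBS_Tm replicate 3 (0.0634) or EV_Tm replicate 2 (0.0796). The other genes that rose were Spg7 (log2 fold change 0.16) and Afg3l2 (0.12), subunits of the inner membrane protease that trims EMRE, and Maip1 (-0.18) and Slc25a25 (-0.03) did not pass; these, Slc25a12, Tmem65 and Letm2 were named after their values were seen. The call of Spg7 was lost without PBS_Tm replicate 3 (edgeR adjusted p = 0.0563), EV_Tm replicate 1 (0.0532) or 3 (0.0799). That of Afg3l2 was lost without PBS_Tm replicate 1 (0.115) or 2 (0.0540) and without EV_Tm replicate 1 (0.0843) or 2 (0.261). It was also lost on fitting without the filter on low counts (edgeR adjusted p = 0.0753).

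Among 10 genes of calcium-sensitive matrix enzymes 4 rose, 1 fell and 5 did not pass (median log2 fold change 0.08), so that 5 of 10 passed where 47.4% of all genes did, a share near the background. Ogdh and Dlst, which encode parts of the 2-oxoglutarate dehydrogenase complex, were 1.17-fold and 1.16-fold higher. The phosphatases that switch on pyruvate dehydrogenase went opposite ways, with Pdp1, the calcium-stimulated one, 1.23-fold lower and Pdp2 1.33-fold higher. Named after their values were seen, Idh3g, a subunit of the isocitrate dehydrogenase of the citrate cycle, rose (log2 fold change 0.15), a call lost without EV_Tm replicate 2 (edgeR adjusted p = 0.0563), while Idh3a (0.07), Idh3b (0.09), Pdha1 (-0.05), Pdhb (-0.07) and Gpd2 (-0.03) did not pass.

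Of 13 genes for outer membrane import and VDAC partners, 12 could be tested, of which 3 rose, 2 fell and 7 did not pass (median log2 fold change 0.05). The 5 of 12 that passed are again near the 47.4% of all genes. Tomm6, with 7 counts in all, was not tested. Hk1, the hexokinase that docks on VDAC, went from 187 ± 5 to 290 ± 3 CPM (1.55-fold, edgeR adjusted p = 1.67e-12), while its relative Hk2 was 1.38-fold lower from 11.6 ± 0.9 CPM. Tomm7, a small subunit of the import complex, was 1.52-fold higher and Tspo, the translocator protein that associates with VDAC, 1.19-fold higher. Mtx2, a sorting complex subunit, passed by a narrow margin (log2 fold change -0.15, edgeR adjusted p = 0.0489) and was lost without PBS_Tm replicate 1 (0.0864) or 2 (0.0778) and without EV_Tm replicate 1 (0.218) or 2 (0.0763). Tomm20, Tomm22, Tomm40 and Tomm70a, the receptors and pore of the import complex, had log2 fold changes of 0.11, -0.06, 0.01 and 0.02 and did not pass; they were named after their values were seen.

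**Figure D4:**
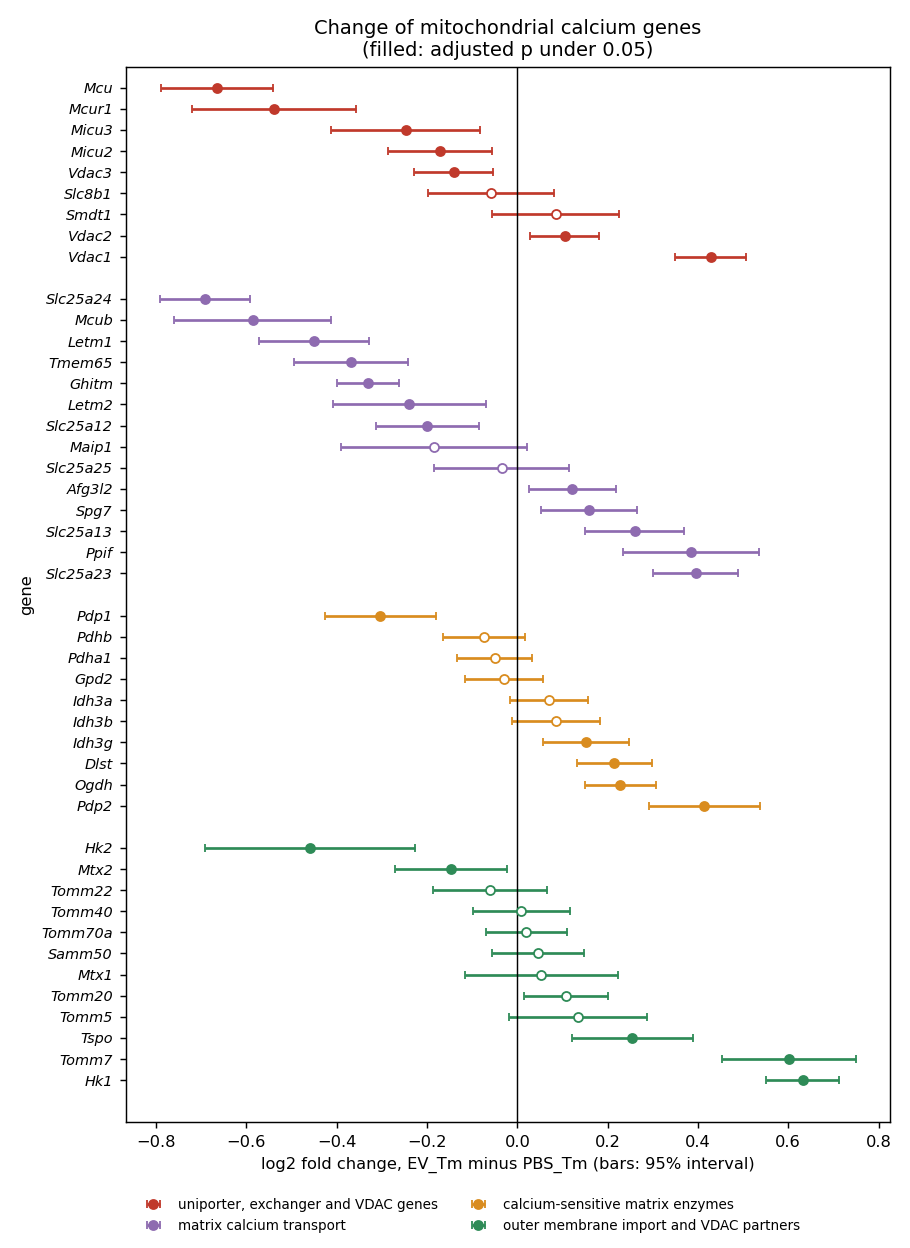
Log2 fold change (x axis, EV_Tm minus PBS_Tm, with 95% intervals) of the 9 genes in red and of 3 lists of other mitochondrial calcium genes, with filled points where the edgeR adjusted p was under 0.05. Mcu (-0.67), Mcur1 (-0.54) and Vdac1 (0.43) stand farthest from 0 among the 9.

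The genes with profiles nearest to that of Mcu over the 6 libraries were Ifrd1, Ncoa1 and Sertad2, and those nearest to Vdac1 were Txndc12, Rps15 and Mcm6. Nearness was the root mean square distance between log2 CPM values centred on each gene's mean, among 10929 genes, and came to 0.030, 0.035 and 0.035 for the first 3 and to 0.0093, 0.017 and 0.023 for the others. Ifrd1 went from 151 ± 4 to 95.4 ± 2.9 CPM and Txndc12 from 32.9 ± 1.1 to 44.2 ± 0.4. With libraries in 2 groups such a likeness mostly reflects an equal difference between the groups.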

How the data were processed

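Total RNA of 6 samples was sequenced. Adaptor removal by the authors was followed by alignment with HISAT2 2.2.1, per the labels' protocols, and the submitters' processing notes name featureCounts 2.0.6 and the build mm39. The authors deposited raw, unnormalized counts for each gene, with gene start, end and length as other deposited values in bases. Start and end of 9 of the 9 genes equal those of GENCODE M21 on GRCm38, and coordinates are given as such. How strand and multi-mapping reads were handled is not stated in the labels, which makes overlapping and duplicated genes uncertain, and levels per length depend on the deposited lengths.

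Counts were tested with edgeR 4.0.16 in R 4.3.3 (TMM, filterByExpr, quasi-likelihood F test, two-sided, Benjamini-Hochberg over 16844 genes, threshold 0.05), with no block. CPM use TMM-scaled library sizes, except for the marker sums, which use plain ones. The limit that a count of 0 allows, 3 counts, is 0.0922 to 0.105 CPM and covers counting error only. The SE is the absolute fold change over the root of F. Ratios and shares were compared by exact permutation over libraries. Mean chi-square per gene within groups was 3.71 to 7.78, so libraries were kept apart. As alternatives, the fit was repeated with library size alone, size factors from DESeq2, 1 CPM in 3 libraries, no filter, the test of DESeq2 1.42.0, limma-voom (limma 3.58.1), a replicate block, an adjusted p under 0.01, leaving out each library and, for ratios, no division by length or a pseudocount of 0.5. Named genes were the 9, up to 3 per list and direction by smallest p, and the 3 nearest profiles to Mcu and to Vdac1 whose mean log2 CPM (prior count 2) was 1 or more, leaving out predicted genes and identifiers. The genes and lists were chosen with earlier results of these data known. No protein sequences were used here, and 1 gene of a list is not reported here.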

Additional observations from a re-analysis of the deposited data

How the results depend on the processing

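Directions of the 9 genes were the same under all 13 alternatives. Mcu (log2 fold change -0.72 to -0.63), Mcur1 (-0.60 to -0.44) and Vdac1 (0.41 to 0.47) passed in each, and Smdt1 and Slc8b1 in none. The number of the 9 genes passing, 7, was 4 at an adjusted p under 0.01 and 4 to 7 when a library was left out. Micu2 was lost with library size alone (adjusted p = 0.056), Vdac3 likewise (0.0518), and Vdac2 without the filter (0.0707). All genes passing numbered 7976, and 7080 to 7708 without a library. With 2 libraries in a group, that group is assumed to vary like the other. Leaving out a library, the difference in the log2 ratio of Micu2 and Micu3 to Mcu was 0.443 to 0.549, and that of Mcur1 to Mcu 0.034 to 0.216. Without division by length, the shares of Vdac2 and Vdac3 were lower in EV_Tm by other amounts (-1.73 and -5.19 percentage points, against -2.73 and -4.33), and with Vdac3-ps1 counts added that of Vdac3 differed by -4.74. Samples with the same replicate number did not deviate together (r = -0.0426, 0.0163 and -0.0141). The labels do not state a pairing, and one with a small effect would look the same, so this cannot decide whether the numbers pair them. With the replicate block 7737 genes passed and, of the 9, Vdac2 alone was lost (edgeR adjusted p = 0.0674); Mtx2 was lost in 10 of 13 alternatives, the block among them (0.0697), and the block also ended the call of Afg3l2 (0.0596). For the ratio of Micu2 and Micu3 to Mcu the mean difference within equal replicate numbers was 0.484. With 3 libraries against 3 it equals the difference of group means by arithmetic, so it is no check of that result. The cause of these losses was not tested. Depth limits the 9 genes unequally, since they had 579 (Micu3) to 14246 (Vdac1) counts a library.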
